A study of Mus musculus with 8 samples.

Results

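The 35 genes described here act in the synthesis of cholesterol and fatty acids, in the sensing of sterols and in the export of cholesterol. They were found in the tables by symbol, and rows of the same symbol were summed. All 35 were found among the 23284 genes of the tables, each on 1 row, and all 35 passed the filter on low values (mean FPKM of 1 or more across the 8 libraries), as did 11198 of the 23284 genes. They fall into 6 role groups, namely 7 genes of the mevalonate steps, 11 genes that lead from squalene to sterols, 6 genes of sterol sensing and control, 3 genes of sterol efflux and its LXR receptor, 3 genes of fatty acid synthesis and 5 genes of fatty acid elongation and desaturation. The gene *Msmo1* is listed under its older symbol *Sc4mol*.

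RNA sequencing was performed on naïve CD4 T cells and on effector Th1, Th2 and Th17 cells, with 2 libraries in each of the 4 groups. All cells were from DO11.10 Tg mice, a line with a transgenic T cell receptor that sees an ovalbumin (OVA) peptide. Naïve CD4 T cells were splenic cells with low CD44 and high CD62L taken by cell sorting, and they were not cultured. Effector Th cells were grown for 6 days from naïve cells with OVA peptide and irradiated splenocytes depleted of T cells. For Th1 cells, 30 U/ml of IL-2 was given with 100 U/ml of IL-12 and 1 μg/ml of anti-IL-4 antibody. The Th2 medium held the same 30 U/ml of IL-2, with 100 U/ml of IL-4 and 10 μg/ml of anti-IFNγ antibody. In Th17 cultures there were 10 ng/ml of IL-1β, of IL-6 and of IL-23 and 10 μg/ml of each of the antibodies against IFNγ and IL-4. Antigen, feeder cells, days in culture and cytokines thus differed together between naïve and effector cells and cannot be told apart. Whether the libraries of a group came from separate mice or cultures is not stated in the sources used, so p-values measure the spread between these libraries only.

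Cholesterol is built from acetyl-CoA through mevalonate, the isoprenoid farnesyl diphosphate and squalene. Fatty acids are built from the same acetyl-CoA, which ATP citrate lyase supplies, and are then lengthened by elongases and given double bonds by desaturases. SREBP transcription factors raise both programs when membrane sterol is low, whereas LXR receptors respond to oxysterols and raise the genes that export cholesterol. Dividing lymphocytes need sterols and fatty acids for new membrane.

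SREBP binds sterol regulatory elements, often beside CCAAT boxes bound by NF-Y and GC boxes bound by Sp1. RefSeq windows of GRCm38.p6, from 250 bases before to 50 bases after a gene's start, were at hand for 27 of the 35 genes and were searched on both strands for TCACNCCAC, CCAAT and GGGCGG. No window was at hand for *Fdps*, *Fdft1*, *Sqle*, *Stard4*, *Abcg1*, *Scd1*, *Scd2* and *Fads1*. Some genes have several starts, and the 27 genes had 35 windows. TCACNCCAC was found in 1 of the 35 windows, that of *Hmgcs1*, and in 1.24% of all 32851 windows of that length. CCAAT was found in 21 of the 35 windows, from 20 genes, and in 37.4% of all windows. GGGCGG was found in 26 of the 35 windows, from 22 genes, and in 35.7% of all windows. A match is a description of letters and not a binding site. Windows of 4 genes are shown, picked after their values were seen, because *Hmgcs1* holds the match to TCACNCCAC, *Hsd17b7* and *Insig1* differed between effector subsets and *Fads2* had the largest difference from naïve cells. Each is 300 bases on the gene's own strand, and capitals mark TCACNCCAC and CCAAT, the latter as ATTGG where it lies on the other strand. They lie at chr13:119690101-119690400 (plus strand), chr1:169969156-169969455 (minus strand), chr5:28071162-28071461 (plus strand) and chr19:10101454-10101753 (minus strand).
Hmgcs1: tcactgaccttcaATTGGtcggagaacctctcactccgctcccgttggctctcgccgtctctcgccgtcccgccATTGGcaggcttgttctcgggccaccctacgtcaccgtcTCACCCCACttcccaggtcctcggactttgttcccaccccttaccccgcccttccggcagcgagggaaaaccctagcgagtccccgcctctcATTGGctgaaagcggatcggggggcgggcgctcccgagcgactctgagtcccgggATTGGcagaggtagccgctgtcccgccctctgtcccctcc
Hsd17b7: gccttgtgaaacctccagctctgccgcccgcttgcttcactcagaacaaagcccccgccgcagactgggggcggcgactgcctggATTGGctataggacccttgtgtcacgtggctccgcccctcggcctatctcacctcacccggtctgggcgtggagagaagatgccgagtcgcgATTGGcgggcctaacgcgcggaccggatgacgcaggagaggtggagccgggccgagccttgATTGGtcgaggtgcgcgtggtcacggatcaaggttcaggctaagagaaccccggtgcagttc
Insig1: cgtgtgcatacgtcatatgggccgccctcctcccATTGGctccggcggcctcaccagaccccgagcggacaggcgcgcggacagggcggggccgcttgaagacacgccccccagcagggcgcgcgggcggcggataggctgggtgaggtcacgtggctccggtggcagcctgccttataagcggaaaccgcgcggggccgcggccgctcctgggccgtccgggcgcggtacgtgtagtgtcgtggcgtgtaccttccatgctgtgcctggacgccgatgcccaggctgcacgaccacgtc
Fads2: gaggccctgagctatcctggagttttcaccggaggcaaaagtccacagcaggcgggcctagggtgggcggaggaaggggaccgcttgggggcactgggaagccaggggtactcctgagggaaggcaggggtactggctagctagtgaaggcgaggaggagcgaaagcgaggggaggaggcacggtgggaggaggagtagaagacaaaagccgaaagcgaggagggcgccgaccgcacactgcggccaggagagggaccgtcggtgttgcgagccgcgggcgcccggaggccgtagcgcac
The *Hmgcs1* window holds TCACCCCAC starting 137 bases before the start and 4 CCAAT boxes. The *Hsd17b7* window holds 3 CCAAT boxes and the *Insig1* window 1. The *Fads2* window holds neither TCACNCCAC nor CCAAT, and 1 GGGCGG.

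The deposited FPKM (fragment numbers scaled to the length of a gene's exons and to the mapped total of the library) came with confidence intervals whose width implied 14463466 to 21058286 fragments per library. Pearson correlations were taken over all 23284 genes, before the filter on low values, on the log2(FPKM + 1) scale. They were 0.983 to 0.986 between replicates of a group and 0.949 to 0.969 between different subsets. Between naïve and effector libraries they were 0.872 to 0.902. Lineage markers fitted the labels, with *Tbx21* and *Ifng* high in Th1, *Gata3* and *Il4* in Th2 and *Il17a* in Th17 libraries. Summed FPKM of 15 markers of B cells, macrophages, monocytes and dendritic cells was 18.8 to 21.5 in naïve, 10.96 to 11.5 in Th1, 31.4 to 35.8 in Th2 and 30.1 to 31.1 in Th17 libraries, with *Siglech* and *Fcgr1* at or near 0 in the effector libraries. The sum of 5 CD4 T cell markers was 1993 to 2030 in naïve and 1094 to 1642 in effector libraries. The part of either in the results below was not tested. In such bulk samples, fewer cells of a type and less RNA per cell cannot be told apart. The tests below used limma on log2(FPKM + 1) over all genes that passed the filter, with p-values adjusted by the Benjamini-Hochberg method and a threshold of 0.05. Because of the added 1, genes at low FPKM appear to change less than they do.

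Most of the 35 genes were higher in effector Th cells than in naïve CD4 T cells. In Th1 cells 27 genes were higher, 2 were lower and 6 did not pass the test, beside 33.8% of all genes tested called higher and 33.5% lower (67.3% in either direction). Th2 cells had 27 genes higher, 3 lower and 5 that did not pass, where 31.8% of all genes were higher and 38.7% lower (70.5% in either direction). Th17 cells had 28 genes higher, 4 lower and 3 that did not pass, where 37.5% of all genes were higher and 29.8% lower (67.3% in either direction), and without naïve replicate 2 the 4 lower genes became 2. Of all genes called in Th17 cells 55.7% were higher, and 44.2% after quantile normalization, where 27 of the 35 were higher and 5 lower. The median difference of the 35 genes on the log2(FPKM + 1) scale was 1.54 (Th1), 1.44 (Th2) and 1.48 (Th17), and that of all genes tested was -0.01, -0.11 and 0.08. The 3 comparisons share the naïve libraries. In 28 genes all 6 effector libraries lay above both naïve libraries, as in 30.5% of all genes, and in *Scap* and *Abcg1* all 6 lay below, as in 31.1% of all genes.

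Higher in all 3 subsets at the threshold were 25 of the 35 genes, compared with 24.8% of all genes. Of these, 9 were higher by at least 2 on the log2 scale in every subset (*Hmgcs1*, *Fdps*, *Sqle*, *Lss*, *Stard4*, *Elovl6*, *Scd1*, *Scd2* and *Fads2*), compared with 5.01% of all genes. Only *Scap* and *Abcg1* were lower in all 3 subsets, and *Tm7sf2* and *Nr1h2* passed the test in none. Of the 91 calls against naïve cells, 82 kept their side of the threshold under every alternative run, and the other 9 are named with the genes concerned. *Abca1*, with a mean FPKM of 1.49, fell below the alternative filter at a mean FPKM of 5 and was not fitted there.

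**Figure D1:**
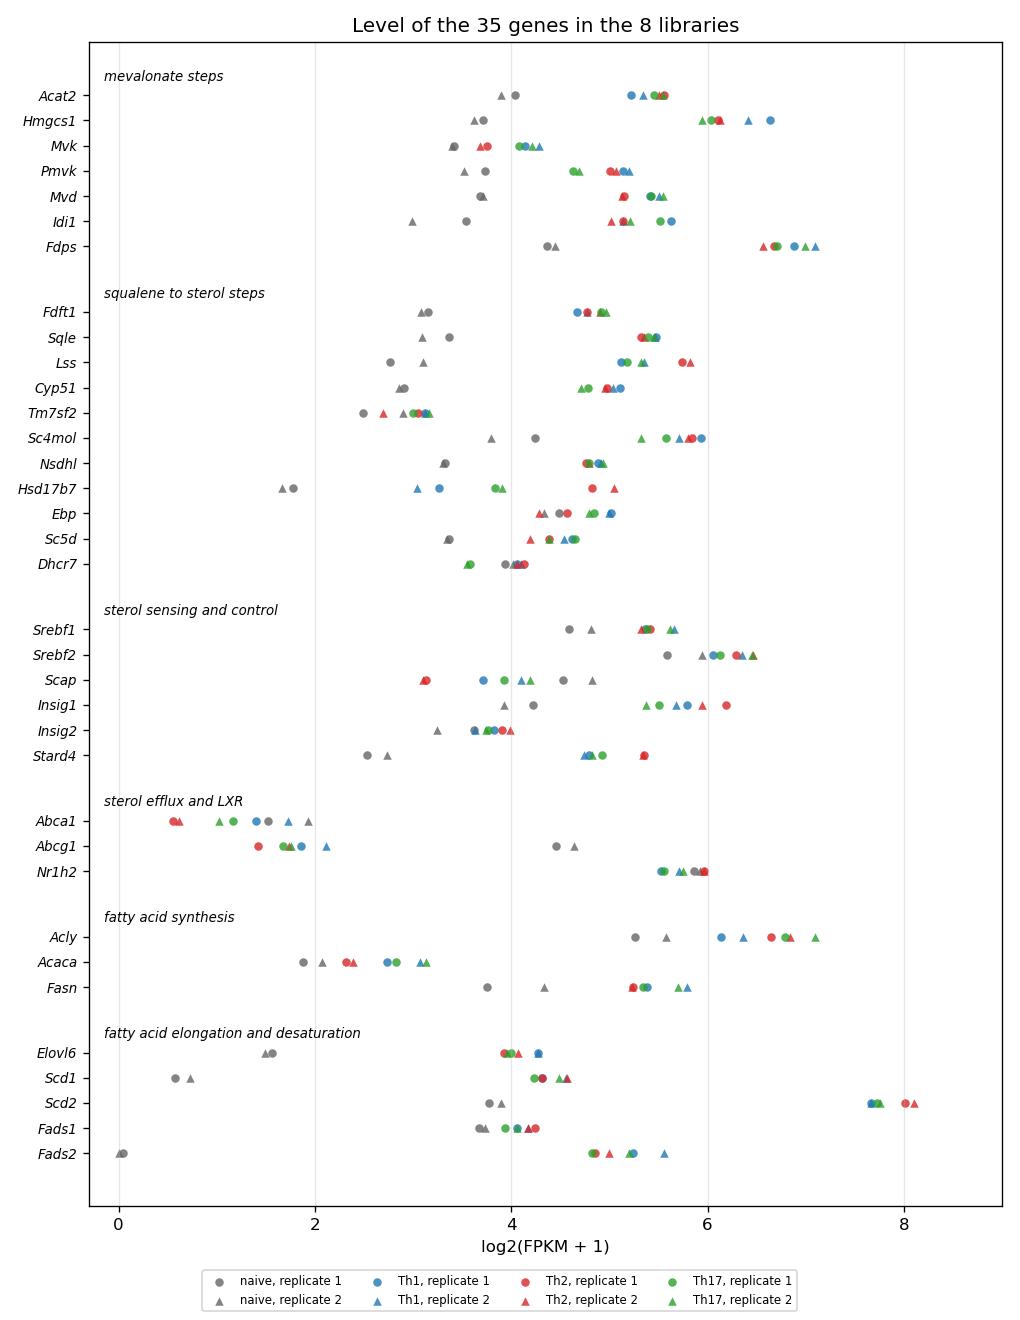
Level of each of the 35 genes as log2(FPKM + 1) on the horizontal axis, with genes in rows by role and a point for each of the 8 libraries (color, group; circle and triangle, replicates 1 and 2). The grey naïve points lie left of all effector points in 28 genes, and right of them in *Scap* and *Abcg1*.

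The 7 genes of the mevalonate steps, which turn acetyl-CoA into farnesyl diphosphate, were all higher in each subset than in naïve cells. Their median difference was 1.76 (Th1), 1.56 (Th2) and 1.79 (Th17). *Hmgcs1*, whose product joins acetoacetyl-CoA with acetyl-CoA to form HMG-CoA, was measured at FPKM 12.1 and 11.3 in the naïve libraries, 98.7 and 84.0 in those of Th1, 67.8 and 68.8 in those of Th2 and 64.8 and 60.6 in those of Th17 cells. Its 6 effector values all lay above the naïve values, with the Th1 libraries highest. The difference from naïve cells was 2.85 ± 0.11 in Th1 (adjusted p = 1.13e-06), 2.44 ± 0.11 in Th2 (adjusted p = 1.82e-06) and 2.32 ± 0.11 in Th17 cells (adjusted p = 2.52e-06), or 7.78-, 5.82- and 5.34-fold in mean FPKM; differences are given with their standard error. *Fdps*, the farnesyl diphosphate synthase, had FPKM 19.7 and 20.8 (naïve), 117 and 136 (Th1), 101 and 93.8 (Th2) and 104 and 126 (Th17), the highest effector levels of this group. It rose by 2.58 ± 0.13, 2.21 ± 0.13 and 2.44 ± 0.13 in Th1, Th2 and Th17 cells (adjusted p = 4.54e-06, 7.8e-06 and 5.08e-06).

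*Idi1*, which isomerizes the isoprenoid units, was at 10.7 and 6.97 in naïve libraries, while Th1 libraries had 48.5 and 34.3, Th2 libraries 34.4 and 31.3 and Th17 libraries 44.8 and 36.1. Its replicates spread more than those of the other mevalonate genes, and the standard error of its differences of 2.12, 1.81 and 2.10 was 0.23. *Acat2*, the cytosolic acetoacetyl-CoA thiolase, rose by 1.31 ± 0.10, 1.56 ± 0.10 and 1.53 ± 0.10 in Th1, Th2 and Th17 cells. *Mvd*, the mevalonate diphosphate decarboxylase, rose by 1.76 ± 0.09, 1.44 ± 0.09 and 1.79 ± 0.09. *Pmvk*, the phosphomevalonate kinase, rose by 1.54 ± 0.10, 1.41 ± 0.10 and 1.03 ± 0.10, and its Th17 value had an adjusted p of 0.0532 with voom on the implied fragments. Mevalonate kinase itself, *Mvk*, moved least, from FPKM 9.72 and 9.53 in naïve libraries to 12.5 and 11.8 in Th2 libraries. Its difference was 0.31 ± 0.09 in Th2 cells (adjusted p = 0.0231), against 0.80 ± 0.09 in Th1 and 0.74 ± 0.09 in Th17 cells. The Th2 call of *Mvk* was lost with only the 2 groups compared in the fit (adjusted p = 0.0572) and without naïve replicate 1 (0.0633), naïve replicate 2 (0.0818) or Th2 replicate 1 (0.0938).

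Of the 11 genes from squalene to sterols, 9 rose in Th1 cells, 8 in Th2 cells and 9 in Th17 cells, with 1 lower in Th17 cells. The median differences were 1.59, 1.72 and 1.55. *Fdft1*, the squalene synthase that commits isoprenoids to sterols, rose by 1.61 ± 0.09, 1.72 ± 0.09 and 1.83 ± 0.09. *Sqle*, the squalene monooxygenase and a slow step of the pathway, was at 9.33 and 7.52 in naïve libraries and at 43.5 and 43.1 (Th1), 39.2 and 39.8 (Th2) and 40.9 and 42.7 (Th17). The 6 effector values lay close together and far above the naïve values, and the differences from naïve cells were 2.24 ± 0.11, 2.11 ± 0.11 and 2.19 ± 0.11 (adjusted p = 3.77e-06, 4.02e-06 and 3.56e-06). *Lss*, which closes the ring to lanosterol, had FPKM 5.78 and 7.59 in the naïve libraries, 33.7 and 39.8 in those of Th1, 52.6 and 55.4 in those of Th2 and 35.4 and 39.0 in those of Th17 cells, with both Th2 libraries above all others. It rose by 2.30 ± 0.14, 2.85 ± 0.14 and 2.32 ± 0.14 (adjusted p = 1.18e-05, 3.5e-06 and 9.79e-06).

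The enzymes that strip methyl groups from lanosterol rose as well. *Cyp51*, the lanosterol 14α-demethylase, rose by 2.19 ± 0.08, 2.08 ± 0.08 and 1.87 ± 0.08 in Th1, Th2 and Th17 cells. *Sc4mol*, the C-4 methylsterol oxidase, rose by 1.80 ± 0.17, 1.80 ± 0.17 and 1.43 ± 0.17, and *Nsdhl*, which acts with it, by 1.59 ± 0.09, 1.47 ± 0.09 and 1.55 ± 0.09. *Hsd17b7*, the 3-keto-sterol reductase that completes this removal, had FPKM 2.43 and 2.17 (naïve), 8.62 and 7.24 (Th1), 27.3 and 32.1 (Th2) and 13.2 and 13.9 (Th17). Its groups did not overlap, and the order was naïve, Th1, Th17 and Th2. The differences from naïve cells were 1.43 ± 0.12, 3.22 ± 0.12 and 2.15 ± 0.12 (adjusted p = 5.18e-05, 9.23e-07 and 6.3e-06).

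*Sc5d*, the lathosterol desaturase, rose by 1.22 ± 0.12 (Th1), 0.93 ± 0.12 (Th2) and 1.15 ± 0.12 (Th17). *Ebp*, the sterol isomerase, rose by 0.60 ± 0.12 in Th1 cells (adjusted p = 0.0031) and by 0.41 ± 0.12 in Th17 cells (adjusted p = 0.0167), while its Th2 difference was 0.02 ± 0.12 (adjusted p = 0.896). The Th17 call of *Ebp* was lost with voom (adjusted p = 0.0625) and without naïve replicate 2 (0.0852), Th17 replicate 1 (0.0754) or Th17 replicate 2 (0.0552). *Dhcr7*, the 7-dehydrocholesterol reductase, was at 14.3 and 15.2 in naïve libraries, while Th1 libraries had 15.7 and 16.2, Th2 libraries 16.5 and 15.7 and Th17 libraries 10.97 and 10.7. It fell by 0.41 ± 0.08 in Th17 cells (adjusted p = 0.00347), and the Th1 and Th2 differences were 0.10 ± 0.08 and 0.12 ± 0.08 (adjusted p = 0.29 and 0.226). The Th2 value of *Dhcr7* passed after median scaling, at 0.25 with an adjusted p of 0.0249. *Tm7sf2*, a sterol C-14 reductase, passed in no subset, with differences of 0.43, 0.18 and 0.39 (adjusted p = 0.0589, 0.377 and 0.0829), but without naïve replicate 2 it was past the threshold in Th1 (0.63, adjusted p = 0.0233) and Th17 cells (0.59, adjusted p = 0.0298).

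Some of these reads could belong to near-identical copies or to a neighboring gene. Some of the 50-base words of their transcripts were also found in other genes. This share was largest for *Acat2* (39.1%), *Acaca* (30.4%), *Fdft1* (26.5%), *Fdps* (26.2%) and *Idi1* (25.3%). Next came *Hmgcs1* (11.6%), *Scap* (9.96%) and *Tm7sf2* (9.87%). *Fdft1* overlaps *Ctsb*, *Tm7sf2* overlaps *Vps51* and *Srebf1* overlaps *Rai1* among protein-coding genes, and their values are uncertain to that extent.

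**Figure D2:**
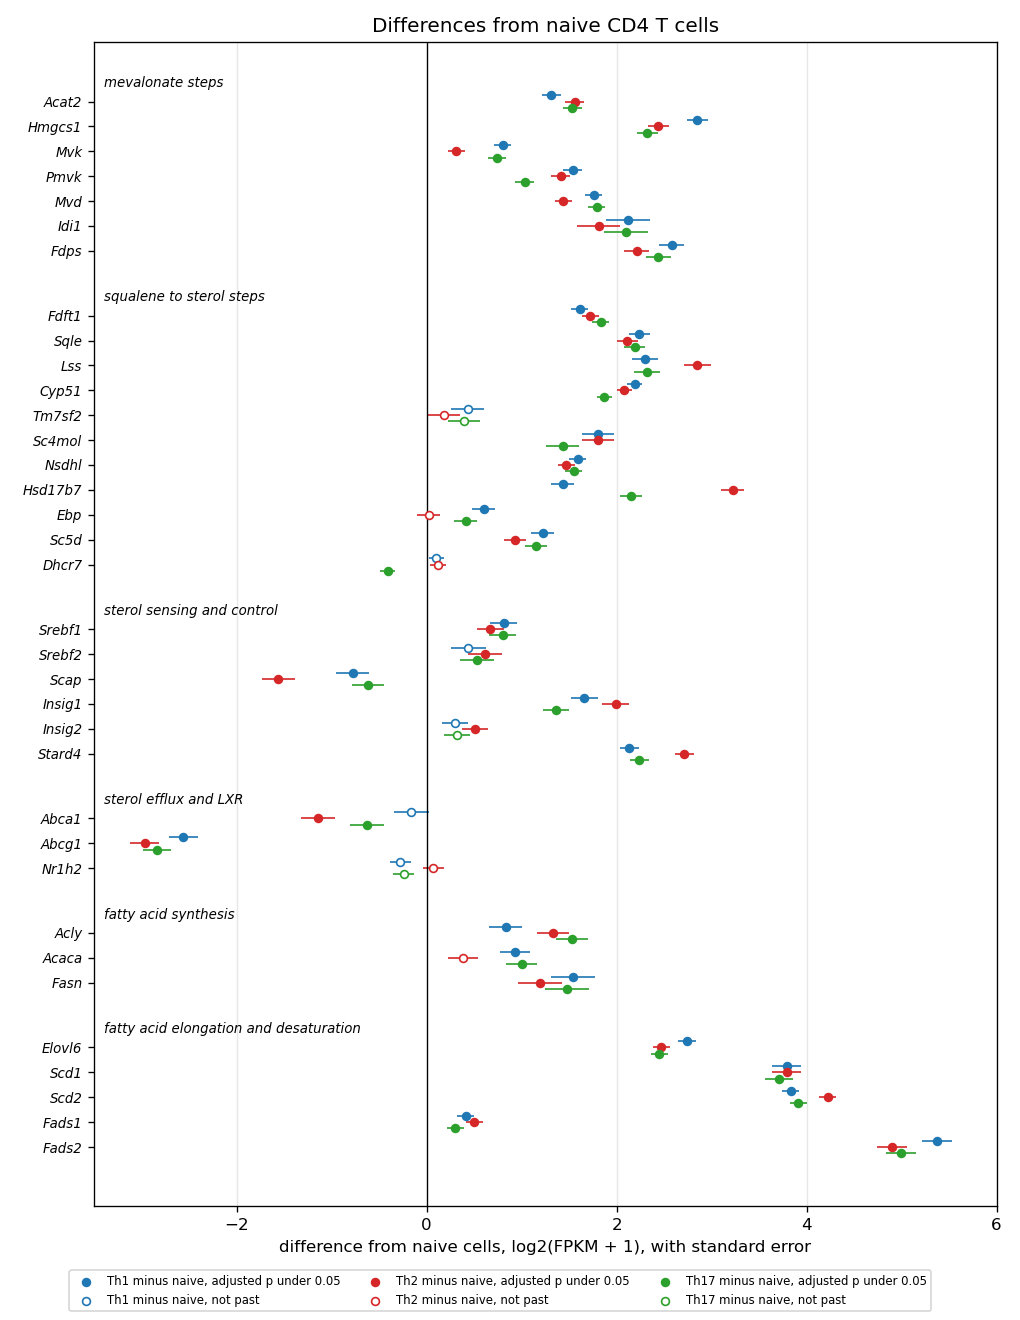
Difference of each gene from naïve cells on the log2(FPKM + 1) scale (horizontal axis; color, subset; bars, standard error of the limma fit), with filled points for an adjusted p under 0.05. The largest differences are those of *Fads2*, *Scd2* and *Scd1*, and *Scap* and *Abcg1* lie left of 0 in all 3 subsets.

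Genes of sterol sensing and control did not move as a block. Of the 6, Th1 cells had 3 higher and 1 lower, Th2 cells 5 higher and 1 lower, and Th17 cells 4 higher and 1 lower, with median differences of 0.62, 0.64 and 0.66. *Srebf1*, which encodes the SREBP-1 factors, rose by 0.81 ± 0.14, 0.67 ± 0.14 and 0.80 ± 0.14 (adjusted p = 0.00207, 0.00465 and 0.00218). *Srebf2*, which encodes SREBP-2, the main driver of sterol synthesis genes, was at 47.1 and 60.6 in the naïve libraries, 65.3 and 80.9 in those of Th1, 77.2 and 87.3 in those of Th2 and 68.9 and 86.7 in those of Th17 cells, and replicate 2 was the higher library in every group. Its difference was 0.44 ± 0.18 in Th1 (adjusted p = 0.0671), 0.61 ± 0.18 in Th2 (adjusted p = 0.0193) and 0.53 ± 0.18 in Th17 cells (adjusted p = 0.0363). With a block for the replicate number all of these passed (adjusted p = 0.00263, 0.000538 and 0.00114), so the Th1 call was gained. The Th2 call was lost without naïve replicate 1 (adjusted p = 0.106) or Th2 replicate 2 (0.102), and the Th17 call was lost in 8 alternatives, among them without naïve replicate 1 (0.181), Th2 replicate 1 (0.0558), Th2 replicate 2 (0.0555) or Th17 replicate 2 (0.19).

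*Scap*, the escort protein that carries SREBPs to the Golgi, went the other way. It was at 22.1 and 27.4 (naïve), 12.1 and 16.1 (Th1), 7.80 and 7.61 (Th2) and 14.2 and 17.3 (Th17), with all effector values below the naïve values and the Th2 values lowest. It fell by 0.78 ± 0.17 in Th1 (adjusted p = 0.00528), by 1.56 ± 0.17 in Th2 (adjusted p = 0.000154) and by 0.62 ± 0.17 in Th17 cells (adjusted p = 0.0143). The Th17 call of *Scap* was lost without naïve replicate 2 (adjusted p = 0.0842) or Th17 replicate 1 (0.0915).

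*Insig1*, itself a target of SREBPs whose product holds SCAP back in the endoplasmic reticulum, had FPKM 17.6 and 14.2 in naïve libraries, while Th1 libraries had 54.4 and 50.3, Th2 libraries 71.7 and 60.7 and Th17 libraries 44.3 and 40.5. It rose by 1.66 ± 0.14, 1.99 ± 0.14 and 1.36 ± 0.14 (adjusted p = 4.58e-05, 1.55e-05 and 0.00011). Its relative *Insig2* rose by 0.51 ± 0.14 in Th2 cells (adjusted p = 0.0129), a call lost without naïve replicate 2 (0.0605) or Th2 replicate 2 (0.0686). The Th1 and Th17 differences of *Insig2* were 0.30 and 0.32 (adjusted p = 0.0938 and 0.0778), and both passed without naïve replicate 1 (0.48 and 0.50, adjusted p = 0.0177 and 0.0151) and with voom on the implied fragments (1.55 and 1.61). *Stard4*, a carrier of cholesterol within the cell and an SREBP-2 target, was at 4.80 and 5.67 in the naïve libraries, 26.8 and 25.8 in those of Th1, 39.9 and 39.7 in those of Th2 and 29.4 and 27.4 in those of Th17 cells. It rose by 2.13 ± 0.10, 2.71 ± 0.10 and 2.24 ± 0.10 (adjusted p = 2.91e-06, 8.24e-07 and 2.09e-06), the largest differences of this group.

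None of the 3 efflux and LXR genes passed the test as higher in any subset, and their median differences were -0.28, -1.14 and -0.63 in Th1, Th2 and Th17 cells. *Abcg1*, a transporter that passes cholesterol to lipoproteins and a target of LXR, was at 21.0 and 24.0 (naïve), 2.63 and 3.33 (Th1), 1.67 and 2.33 (Th2) and 2.20 and 2.37 (Th17). Every effector value lay far below both naïve values. It fell by 2.56 ± 0.15 in Th1 (adjusted p = 7.94e-06), by 2.97 ± 0.15 in Th2 (adjusted p = 3.24e-06) and by 2.84 ± 0.15 in Th17 cells (adjusted p = 4.32e-06), which left 0.133, 0.089 and 0.102 of the mean naïve FPKM. Among the 11198 genes tested it ranked 167, 190 and 149 from the lowest difference.

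*Abca1*, the transporter that loads apolipoprotein A-I, was low throughout, at 1.87 and 2.82 in naïve libraries, while Th1 libraries had 1.65 and 2.32, Th2 libraries 0.468 and 0.528 and Th17 libraries 1.24 and 1.03. The Th1 values overlapped the naïve values, and the Th2 values were lowest. It fell by 1.14 ± 0.18 in Th2 (adjusted p = 0.000938) and by 0.63 ± 0.18 in Th17 cells (adjusted p = 0.0157), with a Th1 difference of -0.16 ± 0.18 (adjusted p = 0.451). The Th1 value was -0.55 with an adjusted p of 0.0193 after quantile normalization, and the Th17 call was lost without naïve replicate 2 (adjusted p = 0.0697) or Th17 replicate 2 (0.074). *Nr1h2*, which encodes LXRβ, was at 57.4 and 59.7 in naïve and 61.4 and 61.3 in Th2 libraries, and at 44.9 and 51.5 in Th1 and 46.0 and 52.9 in Th17 libraries. Its differences of -0.28 ± 0.11, 0.07 ± 0.11 and -0.24 ± 0.11 did not pass (adjusted p = 0.0583, 0.614 and 0.088). With the replicate block the Th1 and Th17 values passed (adjusted p = 0.0216 and 0.0351), as they did after median scaling (0.045 and 0.0208).

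To set synthesis against efflux, the mean log2(FPKM + 1) of *Abca1* and *Abcg1* was taken from that of the 18 sterol synthesis genes in each library. The result was 0.47 and 0.11 in naïve libraries, 3.39 and 3.08 (Th1), 4.0 and 3.77 (Th2) and 3.49 and 3.54 (Th17). All effector libraries lay above both naïve libraries, and the Th2 libraries lay above the other effector libraries. This lead of the Th2 libraries came mostly from the efflux genes, whose mean was 0.99 and 1.17 in Th2 and 1.39 to 1.92 in the other effector libraries. The mean of the synthesis genes was 5.019 and 5.002 (Th1), 4.988 and 4.944 (Th2) and 4.912 and 4.924 (Th17), so that Th2 libraries lay below Th1 libraries. Summed FPKM of the 18 synthesis genes was 200.3 and 188 (naïve), 703.8 and 698.4 (Th1), 652.5 and 641.2 (Th2) and 626.4 and 641.7 (Th17). Summed FPKM of *Abca1* and *Abcg1* was 22.9 and 26.8 in naïve libraries and 2.14 to 5.65 in effector libraries, of which *Abcg1* made up most. The ratio of these sums was 8.76 and 7.02 (naïve), 165 and 124 (Th1), 305 and 224 (Th2) and 182 and 189 (Th17). These values are a description of the listed genes and carry no test. With a pseudocount of 0.1 the mean values for Th1, Th2 and Th17 cells were 3.63, 4.76 and 4.09.

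**Figure D3:**
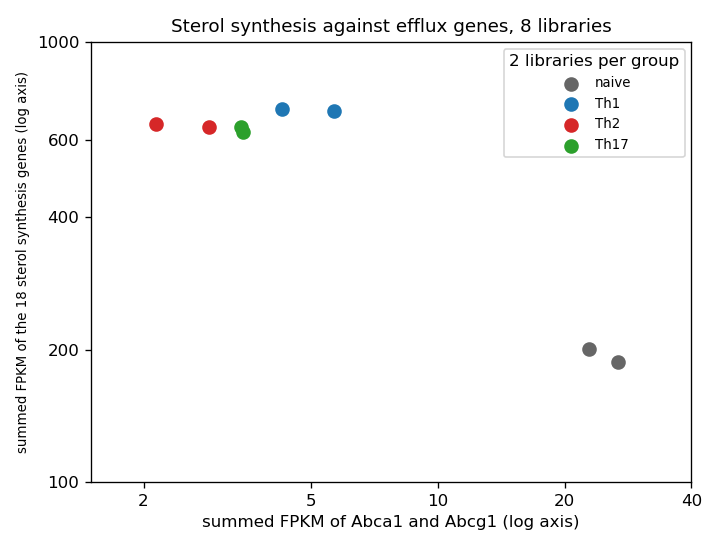
Summed FPKM of the 18 sterol synthesis genes (vertical, log axis) against that of *Abca1* and *Abcg1* (horizontal, log axis), with 1 point for each of the 8 libraries. Both naïve libraries lie at the lower right and the 6 effector libraries at the upper left, from 2.14 to 5.65 on the horizontal axis.

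All 8 fatty acid genes were higher in Th1 and Th17 cells than in naïve cells, and 7 of 8 in Th2 cells. Their median difference was 2.14 (Th1), 1.90 (Th2) and 1.99 (Th17). *Acly*, which makes cytosolic acetyl-CoA from citrate, was at 37.3 and 46.7 in the naïve libraries, 69.3 and 81.0 in those of Th1, 98.9 and 114 in those of Th2 and 109.6 and 136 in those of Th17 cells. It rose by 0.83 ± 0.17, 1.33 ± 0.17 and 1.53 ± 0.17 (adjusted p = 0.00368, 0.000331 and 0.000174). *Fasn*, the fatty acid synthase, rose from 12.5 and 19.2 in naïve to 40.6 and 54.3 (Th1), 36.8 and 36.4 (Th2) and 39.5 and 51.0 (Th17). Its naïve libraries lay apart, and the differences of 1.54 ± 0.23, 1.19 ± 0.23 and 1.48 ± 0.23 moved by up to 0.29 when either naïve library was left out.

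*Acaca*, the carboxylase that forms malonyl-CoA, was low, at 2.67 and 3.22 (naïve), 5.68 and 7.43 (Th1), 3.99 and 4.22 (Th2) and 6.07 and 7.74 (Th17). It rose by 0.93 ± 0.16 in Th1 (adjusted p = 0.00165) and by 1.00 ± 0.16 in Th17 cells (adjusted p = 0.00114). The Th2 difference was 0.38 ± 0.16 (adjusted p = 0.0674). It passed with the replicate block (adjusted p = 0.0113), after median scaling (0.0216) and with voom (0.0487).

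The elongation and desaturation genes held the largest differences among the 35, with a median of 3.79 (Th1), 3.79 (Th2) and 3.71 (Th17). *Fads2*, the Δ6 desaturase of polyunsaturated fatty acids, was listed at 0.033 and 0 FPKM in naïve libraries, or 1 and 0 implied fragments. It stood at 36.9 and 45.9 (Th1), 27.9 and 30.8 (Th2) and 27.3 and 35.7 (Th17). The differences on the log2(FPKM + 1) scale were 5.37 ± 0.16, 4.90 ± 0.16 and 4.99 ± 0.16 (adjusted p = 4.56e-07, 5.23e-07 and 5.07e-07). They depend on the pseudocount, and no fold is given against so low a level. The deposited position of *Fads2* is chr19:10064164-10101503 in mm10. Its ranks from the highest difference among 11198 genes were 69, 110 and 86.

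*Fads1*, the Δ5 desaturase that works after it, was expressed in naïve cells at 11.7 and 12.3 and changed far less, by 0.41 ± 0.09, 0.50 ± 0.09 and 0.30 ± 0.09 (adjusted p = 0.00572, 0.00212 and 0.0233). Its Th17 call was lost in 5 alternatives, with an adjusted p of up to 0.127 without Th17 replicate 2, and also without naïve replicate 1 (0.0915) or naïve replicate 2 (0.0533).

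*Scd2*, a Δ9 desaturase that makes monounsaturated fatty acids, reached the highest level of all 35 genes in the effector libraries. It was at 12.7 and 13.8 in naïve libraries, while Th1 libraries had 202 and 201, Th2 libraries 256 and 274 and Th17 libraries 211 and 215, or 15.2-, 20- and 16-fold in mean FPKM. The differences were 3.83 ± 0.09, 4.22 ± 0.09 and 3.91 ± 0.09 (adjusted p = 2.76e-07, 1.61e-07 and 2.4e-07). *Scd1*, its neighbor on chromosome 19, rose from 0.488 and 0.658 in naïve to 18.9 and 22.5 (Th1), 18.9 and 22.7 (Th2) and 17.8 and 21.5 (Th17). Its differences were 3.79 ± 0.15, 3.79 ± 0.15 and 3.71 ± 0.15 (adjusted p = 1.28e-06, 1.03e-06 and 1.25e-06), while its level stayed about an order of magnitude below that of *Scd2* on the FPKM scale. Of the 50-base words of *Scd1* and *Scd2*, 4.56% and 3.97% were found in other genes. *Elovl6*, which lengthens saturated chains, rose from 1.95 and 1.82 to 18.3 and 18.3 (Th1), 14.2 and 15.8 (Th2) and 15.0 and 14.6 (Th17), or by 2.74 ± 0.09, 2.47 ± 0.09 and 2.45 ± 0.09 (adjusted p = 6.15e-07, 7.98e-07 and 8.91e-07).

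Fewer of the 35 genes passed the test between effector subsets than against naïve cells. In at least 1 of the 3 comparisons between subsets 19 of the 35 genes passed the test, as did 59.9% of all genes, and 16 passed in none. *Fdft1*, *Sqle*, *Nsdhl*, *Scd1* and *Fasn* were among those that passed in none. Of the 33 calls between subsets, 24 were lost under at least 1 alternative and 9 held under every alternative run, namely those of *Hsd17b7* in all 3 comparisons, of *Dhcr7* in both comparisons with Th17 cells, and of *Mvk*, *Ebp*, *Stard4* and *Abca1* between Th1 and Th2 cells. As the FPKM were deposited, the median difference of all genes was 0.11 for Th1 minus Th2 cells, 0.18 for Th17 minus Th2 cells and -0.08 for Th1 minus Th17 cells, and differences of these genes are to be read beside those shifts.

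Between Th1 and Th2 cells, 9 genes were higher in Th1 cells and 6 were higher in Th2 cells, beside 27.4% and 16.9% of all genes (44.3% in either direction). After median scaling these counts were 5 and 8, and the share of calls higher in Th1 cells over all genes went from 61.8% to 50.4%. *Hsd17b7* was lower in Th1 than in Th2 cells (Th1 minus Th2, -1.78 ± 0.12, adjusted p = 5.78e-05), the largest difference between subsets among the 35 genes. *Stard4* (-0.58 ± 0.10, adjusted p = 0.00361) and *Lss* (-0.55 ± 0.14, adjusted p = 0.0201) were also lower in Th1 cells. Higher in Th1 cells were *Abca1* by 0.98 ± 0.18 (adjusted p = 0.00451), *Scap* by 0.78 ± 0.17 (0.00947), *Ebp* by 0.58 ± 0.12 (0.00698), *Acaca* by 0.56 ± 0.16 (0.0272) and *Mvk* by 0.50 ± 0.09 (0.00587). The smaller differences in favor of Th1 cells were 0.41 ± 0.11 for *Hmgcs1*, 0.33 ± 0.09 for *Mvd*, 0.27 ± 0.09 for *Elovl6* and 0.47 ± 0.16 for *Fads2*, and all 4 lost their call after median scaling. The differences of *Acly*, *Scd2* and *Nr1h2*, lower in Th1 cells, were -0.50 ± 0.17, -0.39 ± 0.09 and -0.34 ± 0.11 (adjusted p = 0.048, 0.0142 and 0.0409). The 15 calls became 8 without Th1 replicate 1 and 7 without Th1 replicate 2, Th2 replicate 1 or Th2 replicate 2, each of which leaves a lone library that is assumed to vary like the other groups.

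Between Th17 and Th2 cells, 5 genes were higher in Th17 cells and 7 were higher in Th2 cells, beside 31.7% and 12% of all genes (43.6% in either direction). After median scaling the counts were 1 and 11 and after quantile normalization 3 and 10, and the share of calls higher in Th17 cells over all genes went from 72.6% to 49.7% with median scaling. Higher in Th2 cells were *Hsd17b7* (Th17 minus Th2, -1.07 ± 0.12, adjusted p = 0.00078), *Insig1* (-0.63 ± 0.14, 0.0103), *Dhcr7* (-0.53 ± 0.08, 0.00272), *Lss* (-0.53 ± 0.14, 0.0233) and *Stard4* (-0.47 ± 0.10, 0.0089), together with *Pmvk* at -0.38 and *Scd2* at -0.32. Higher in Th17 cells were *Scap* by 0.94 ± 0.17 (adjusted p = 0.00497), *Acaca* by 0.62 ± 0.16 (0.0185), *Mvk* by 0.43, *Ebp* by 0.39 and *Mvd* by 0.35, and after median scaling only *Scap* kept its call. The 12 calls became 7 without Th2 replicate 1, 5 without Th2 replicate 2 and 3 without Th17 replicate 2.

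The fewest calls lay between Th1 and Th17 cells, with 4 genes higher in Th1 cells and 2 higher in Th17 cells, beside 9.17% and 16% of all genes (25.1% in either direction). Of all genes called between them 36.5% were higher in Th1 cells, and 49.1% after median scaling. *Hmgcs1* was higher in Th1 cells by 0.53 ± 0.11 (adjusted p = 0.0117), *Dhcr7* by 0.52 ± 0.08 (0.00435), *Pmvk* by 0.51 ± 0.10 (0.0102) and *Cyp51* by 0.32 ± 0.08 (0.0283). Higher in Th17 cells were *Hsd17b7* (Th1 minus Th17, -0.71 ± 0.12, adjusted p = 0.00566) and *Acly* (-0.70 ± 0.17, 0.023). With the replicate number as a block 10 genes passed, 8 of them higher in Th1 cells, and the added genes were *Sc4mol*, *Insig1*, *Elovl6* and *Fads2* (adjusted p = 0.0428, 0.0315, 0.0406 and 0.0469). The 6 calls became 3 without Th1 replicate 1, Th1 replicate 2 or Th17 replicate 2.

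The same block added calls in the other pairs of subsets. Between Th1 and Th2 cells it added *Fdps*, *Sc5d*, *Insig1* and *Abcg1* (adjusted p = 0.0298, 0.0304, 0.0141 and 0.0111), and between Th17 and Th2 cells *Cyp51*, *Sc4mol*, *Abca1* and *Nr1h2* (0.0325, 0.0279, 0.0373 and 0.0216).

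**Figure D4:**
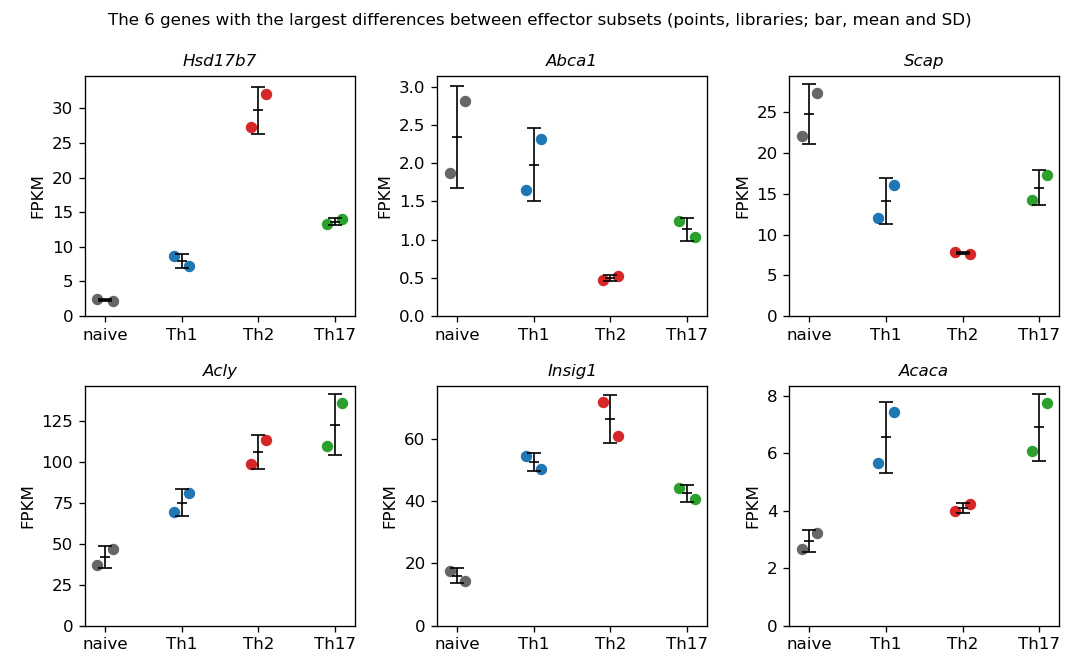
FPKM (vertical axes from 0) in naïve, Th1, Th2 and Th17 libraries for the 6 genes with the largest differences between effector subsets, with 1 point per library and bars for the mean and SD of 2 libraries. *Hsd17b7* and *Insig1* were highest and *Scap* and *Abca1* lowest in Th2 libraries, and *Acly* was lowest in Th1 among the effector libraries.

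Other lipid genes were counted in 5 lists set by role. Among all genes tested, 33.8% were higher and 33.5% lower than in naïve cells (Th1), 31.8% and 38.7% (Th2) and 37.5% and 29.8% (Th17). The list of fatty acid supply was the only one of the 5 with more genes higher than lower in every subset. Of 10 genes of the isoprenoid branch, which use farnesyl diphosphate for other ends, 4 rose and 5 fell in Th1 cells, 2 rose and 4 fell in Th2 cells and 4 rose and 4 fell in Th17 cells (medians -0.13, -0.12 and 0.17). *Fntb*, a subunit of farnesyltransferase, fell by 1.57 ± 0.12 in Th17 cells (adjusted p = 2.41e-05), and *Pdss2*, of ubiquinone side chain synthesis, rose by 0.86 ± 0.12 in Th2 cells (adjusted p = 0.000518). Of the 4 SREBP proteases and sterol-regulated ligases, 1 rose and 3 fell in Th1 cells, 0 rose and 3 fell in Th2 cells and 1 rose and 2 fell in Th17 cells (medians -0.57, -0.55 and -0.41). *Mbtps1*, the site-1 protease that cuts SREBPs, fell by 1.15 ± 0.16 in Th2 cells (adjusted p = 0.000517). *Mbtps2*, the site-2 protease, rose by 0.48 ± 0.14 in Th1 cells (adjusted p = 0.0209). This call was lost after quantile normalization (0.33, adjusted p = 0.109), with voom (adjusted p = 0.0847), with only the 2 groups compared (0.0517) and without naïve replicate 1 (0.061), naïve replicate 2 (0.0795) or Th1 replicate 1 (0.123). *Mbtps2* was also the gene counted as higher in Th17 cells (0.39 ± 0.14, adjusted p = 0.0435), a call lost with voom (0.137) among others.

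Of 9 tested genes of cholesterol storage, transport and LXR response, 3 rose and 4 fell in Th1 cells, 2 rose and 4 fell in Th2 cells and 3 rose and 4 fell in Th17 cells (medians -0.24, -0.15 and -0.28). *Lipa*, a lysosomal lipase counted as lower in every subset and named here after its values were seen, carries a failed estimate in both naïve libraries and in Th17 replicate 1, and its calls were lost with voom, which rests on the confidence intervals (adjusted p = 0.146, 0.217 and 0.987). *Soat1*, which esterifies cholesterol for storage, was at 4.62 and 5.22 in the naïve libraries, 14.8 and 16.4 in those of Th1, 49.95 and 64.0 in those of Th2 and 18.5 and 18.6 in those of Th17 cells, and rose by 3.28 ± 0.13 in Th2 cells (adjusted p = 1.36e-06). The Th2 libraries stood above all others. *Mylip*, an LXR target whose product degrades lipoprotein receptors, was at 26.5 and 33.4 (naïve), 4.36 and 6.33 (Th1), 1.04 and 1.06 (Th2) and 0.451 and 0.702 (Th17), and fell by 4.29 ± 0.18 in Th17 cells (adjusted p = 1.86e-06).

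Of 10 tested genes of fatty acid supply, activation and other elongases, 7 rose and 1 fell in Th1 cells, 6 rose and 1 fell in Th2 cells and 7 rose and 2 fell in Th17 cells (medians 0.67, 0.40 and 0.50). *Me1*, a malic enzyme that yields NADPH, was at 0.014 and 0 in naïve libraries, while Th1 libraries had 20.2 and 19.8, Th2 libraries 4.53 and 5.09 and Th17 libraries 2.24 and 2.50, a difference of 4.38 ± 0.10 in Th1 cells (adjusted p = 2.04e-07). *Acss2*, the acetyl-CoA synthetase of the cytosol, fell by 0.78 ± 0.11 in Th1 cells (adjusted p = 0.000692). Of 9 genes of fatty acid oxidation, 2 rose and 3 fell in Th1 cells, 2 rose and 3 fell in Th2 cells and 4 rose and 1 fell in Th17 cells (medians -0.02, -0.13 and 0.25). *Acadl*, the long-chain acyl-CoA dehydrogenase, was at 21.5 and 21.3 in the naïve libraries, 212 and 215 in those of Th1, 132 and 167 in those of Th2 and 231 and 217 in those of Th17 cells and rose by 3.33 ± 0.13 in Th17 cells (adjusted p = 1.12e-06). *Slc25a20*, the carnitine carrier of mitochondria, fell by 0.80 ± 0.10 in Th2 cells (adjusted p = 0.000308). *Ch25h*, *Nr1h3*, *Acacb* and *Elovl7* were below the filter and were not tested.

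**Figure D5:**
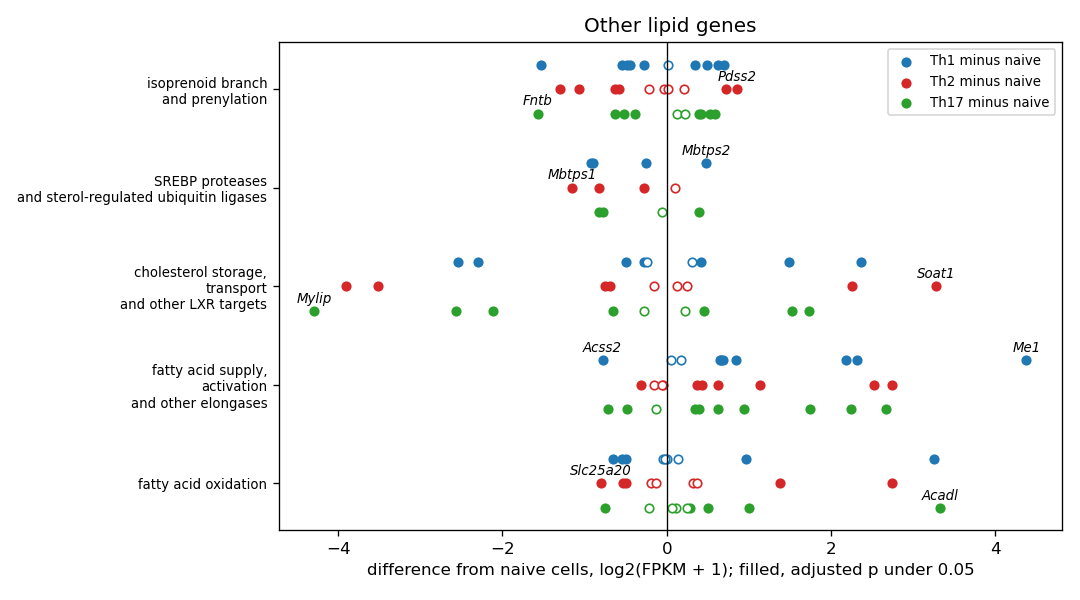
Difference from naïve cells on the log2(FPKM + 1) scale (horizontal axis) for the tested genes of 5 other lipid lists (rows; color, subset), filled where the adjusted p was under 0.05. The gene with the largest significant rise and the one with the largest fall are named in each list, such as *Me1* at 4.38 and *Mylip* at -4.29.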

How the data were processed

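RNA was sequenced from naïve CD4 T cells and from Th1, Th2 and Th17 effector cells, 2 libraries per group, with groups taken from the sample labels. The authors aligned reads to mm10 by TopHat 1.3.2 with Bowtie 0.12.8 and deposited FPKM per gene, with confidence intervals and an estimation status, from Cufflinks (version 2.0.2). FPKM are relative to all mapped fragments of a library, so a few strongly expressed genes can shift the rest. The annotation is not given in the sources used here. The methods name an unstranded library kit and the labels a stranded one, so antisense and overlapping genes may share reads. No library was identical to another.

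Rows of 1 symbol were summed. Those whose mean FPKM reached 1 were fitted as log2(FPKM + 1) with limma (version 3.58.1, R 4.3.3, 4 group means over all 8 libraries, trend in eBayes, two-sided, Benjamini-Hochberg adjustment over all genes tested, threshold 0.05). The fit was also run on data simulated with independent noise in each library. Such data lack the correlation of same-numbered libraries given below, so they cannot check the p-values for it. Python 3.11.15, numpy 2.4.6 and pandas 2.3.3 served for tables. All 35 genes are reported, together with the gene of largest rise and of largest fall past the threshold in each of 5 other lipid lists. The genes and lists were chosen with earlier results of these data known. Sequences came from RefSeq (GRCm38.p6).

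Alternatives tried were 0.1 as the pseudocount, no filter on low values or one at 5 FPKM, median scaling, quantile normalization, only the 2 groups compared, no trend, a replicate block, voom on fragments implied by the confidence intervals, and leaving out each library. Replicate numbers come from the labels. Deviations of same-numbered libraries correlated in all 6 pairs of groups (r = 0.138 to 0.294). The main fit did not pair these libraries, and its p-values ignore that correlation. Only the alternative with the replicate block pairs them. Implied fragments rest on the assumption that interval width reflects counting error.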

Additional observations from a re-analysis of the deposited data

Results flagged for a closer look

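These results were singled out because the change from naïve cells differed between effector subsets, by the limma test of the difference between those subsets. For each of the 19 genes the largest such difference past the threshold is given, on the log2(FPKM + 1) scale. For Th1 minus Th2 it was 0.50 for *Mvk*, -0.55 for *Lss*, -1.78 for *Hsd17b7*, 0.58 for *Ebp*, -0.58 for *Stard4* and 0.98 for *Abca1*. In the same comparison it was -0.34 for *Nr1h2*, 0.27 for *Elovl6*, -0.39 for *Scd2* and 0.47 for *Fads2*. For Th17 minus Th2 it was 0.35 for *Mvd*, -0.53 for *Dhcr7*, 0.94 for *Scap*, -0.63 for *Insig1* and 0.62 for *Acaca*. For Th1 minus Th17 it was 0.53 for *Hmgcs1*, 0.51 for *Pmvk*, 0.32 for *Cyp51* and -0.70 for *Acly*. With 2 libraries per group no library could be tested as an outlier.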

How the results depend on the processing

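Of 1782 values of the 35 genes against naïve cells under 9 alternatives and 8 fits without 1 library, 1728 kept their direction and side of the threshold, 30 lost and 24 gained a call, and 0 reversed. Over all 4572 values of 45 named genes and the 6 comparisons, 4295 were kept, 194 lost and 82 gained a call, and 1 reversed: *Pdss2* in Th17 minus naïve was -0.18 with voom (adjusted p = 0.622). A sign change between values that both missed the threshold, which occurred 89 times, was counted as kept. The causes were not tested.

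The mean synthesis minus efflux level with a pseudocount of 0.1 was 3.63 (Th1), 4.76 (Th2) and 4.09 (Th17), and after median scaling that of Th17 cells was 3.48. Quantile normalization moved the median difference of all genes from naïve to -0.131 (Th1), -0.127 (Th2) and -0.115 (Th17), and 4 of the 35 genes were then lower in Th1 cells. Higher in Th1 than in Th2 cells were 5 genes after median scaling and 5 after quantile normalization. Higher in Th17 than in Th2 cells were 1 after median scaling and 3 after quantile normalization, and 11 were lower after median scaling. Higher in Th1 than in Th17 cells were 2 with voom.

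With the replicate number as a block, which pairs same-numbered libraries, 10 genes were called between Th1 and Th17 cells, 8 of them higher in Th1 cells. The calls the block changed are given with the genes concerned, and it changed no other call of the 35 genes.

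For the synthesis minus efflux level, leaving out 1 library only returns the value of the other library of its group. These values were 0.11 and 0.47 (naïve), 3.08 and 3.39 (Th1), 3.77 and 4.0 (Th2) and 3.49 and 3.54 (Th17), so they are no further check. Genes called, higher and lower ranged over 29 to 31, 27 to 29 and 2 in Th1 minus naïve, over 28 to 30, 25 to 27 and 3 in Th2 minus naïve, and over 28 to 32, 25 to 28 and 2 to 4 in Th17 minus naïve. They ranged over 7 to 14, 4 to 9 and 2 to 5 in Th1 minus Th2, over 3 to 13, 1 to 6 and 2 to 7 in Th17 minus Th2, and over 3 to 6, 2 to 4 and 1 to 2 in Th1 minus Th17. With 2 libraries per group an SD is a rough estimate, and the level of *Fads2* in naïve cells rests on 1 and 0 implied fragments.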

Other observations

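In the other lipid lists, 1 gene outside the rule for named genes was picked after its values were seen. *Slc25a1*, the mitochondrial citrate carrier that feeds ATP citrate lyase, was at FPKM 10.1 and 8.96 (naïve), 44.6 and 49.2 (Th1), 66.0 and 73.1 (Th2) and 42.5 and 55.9 (Th17), and every effector value lay above both naïve values.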
